A study of Homo sapiens with 6 samples.

Results

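The genes described here are 10 genes of arterial endothelial identity and Notch signaling: the transcriptional repressors HEY1 and HEY2, the Notch ligands DLL4 and JAG1, the receptors NOTCH1 and NOTCH4, the arterial ligand EFNB2, the gap junction genes GJA4 and GJA5, and the chemokine receptor CXCR4. They were taken by symbol from the deposited table of expression values, in which each of the 10 stands on 1 of the 58364 rows that hold values. The values come from RNA-seq of cells derived from H1, a human embryonic stem cell line, at day 8 of hematopoietic differentiation. There were 2 libraries of wild-type cells (WT) and 4 of MSX2-/- cells, made with CRISPR/Cas9 and a guide RNA against exon 2 of MSX2, which encodes a homeobox transcription factor. The knockout cells are 2 clones, 1# and 2#, each grown from a single cell after lentiviral delivery and puromycin selection, with 2 libraries per clone. Replicate numbers 1 and 2 are shared by WT, 1# and 2#, and the sample labels give number 1 the set letter F and number 2 the letter S, without saying what a set is. All groups went through the same stepwise culture, for which the labels name activinA, BMP4, VEGF and bFGF. The labels call the MSX2-/- cells CD31+ and do not say so of WT, while the results text of the study speaks of CD31+ cells for both. Whether the replicates came from separate cultures is not said in the labels. The methods speak of independent experiments in general terms, without naming these libraries, so p-values are taken to measure only the spread between these libraries.

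In the embryo, arterial endothelium is set apart from venous endothelium by VEGF and Notch signaling. A DELTA-like or JAGGED ligand on a neighboring cell binds a NOTCH receptor, the receptor is cut by ADAM proteases and γ-secretase, and its freed intracellular part joins RBPJ and MAML proteins to switch on targets such as the HES and HEY genes. Hemogenic endothelium, from which blood cells emerge, has been linked to arterial endothelium, and Notch signaling has been linked to both.

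The targeted gene did not check the labels. MSX2 was at 3.64 and 1.44 FPKM (fragments per kilobase of transcript, scaled to library size) in WT replicates 1 and 2, at 18 and 5.62 in clone 1# and at 31.8 and 6.69 in clone 2#. Every library labelled MSX2-/- thus held more MSX2 mRNA than either WT library, by 1.99 ± 0.69 (SE) on the log2(FPKM + 1) scale (limma adjusted p = 0.309, and 0.0107 in a fit blocked on the replicate number). A frameshift in an exon need not lower the mRNA, and all directions below rest on the labels. Of the 12 endothelial markers examined, including CD31 itself (PECAM1, 258 and 218 FPKM in WT and 186 to 230 in MSX2-/-), all passed the filter on low values. The summed level of the 12 was 3403 to 4080 FPKM in WT and 2214 to 3434 in MSX2-/-. That of 12 blood markers was 131 to 169 and 313 to 429, with the leukocyte marker PTPRC at 0 to 0.115, and that of 10 mesenchymal markers was 294 to 345 and 509 to 595. Of the latter, COL1A1 (27.7 and 55.9 in WT, 193 to 206 in MSX2-/-) and TAGLN (15.8 and 33.1, 88.3 to 94.2) were higher. COL1A2 (144 and 148, 130 to 156) and COL3A1 (32.9 and 51.1, 17.4 to 48.8) were not. Summed pluripotency markers were at 63.8 to 74.5 FPKM in WT and 82.3 to 100.1 in MSX2-/-. Most of that was LIN28A (34 and 50.6 in WT, 48.5 to 66.1 in MSX2-/-) and DPPA4. NANOG was at 0 to 0.373 and SOX2 at 0 to 0.128. Hepatic and endoderm markers were at 205 to 311 and 330 to 546, with SOX17, also an endothelial factor, the largest single part (165 and 241, 201 to 353). The hepatic gene ALB was at 20.7 and 44.8 in WT, 122 and 125 in 1#, and 15.3 and 0 in 2#. APOA1 was at 10.5 and 19.7 in WT, 79.9 and 50.7 in 1#, and 72.1 and 10.4 in 2#. Cardiac and neural markers were at 108 to 284 and 174 to 207, nearly all TUBB3 (76.5 and 242, 97.8 to 132) and NKX2-5 (30.9 and 41.4, 49.6 to 84.3). The part of these shifts in the results below was not tested, and fewer cells of a type and less RNA per cell cannot be told apart in such bulk samples.

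Per-gene positions are those of GENCODE v29 on GRCh38, matched by symbol; the table itself holds no coordinates. All 10 are protein coding, and the values cover the exons of each gene as a whole. HEY2 lies at chr6:125747664-125761269, JAG1 at chr20:10637684-10673999, DLL4 at chr15:40929333-40939073, EFNB2 at chr13:106489731-106535662, NOTCH1 at chr9:136494433-136545786 and NOTCH4 at chr6:32194843-32224067. GJA4 lies at chr1:34792998-34795747, GJA5 at chr1:147756199-147773362 and CXCR4 at chr2:136114349-136118165. All but HEY1, DLL4 and CXCR4 overlap other annotated genes. No use of strand is stated for the values, so reads from these overlaps cannot be assigned with certainty.

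The sequence just upstream of the gene start is shown for HEY2 and JAG1, the members that were higher in MSX2-/-, and for DLL4 and EFNB2, which were lower once replicate numbers were taken into account. The sequences are from RefSeq (GRCh38.p14), written 5′ to 3′ on the strand of the gene and cut at the first exon that GENCODE places there for that gene. The start meant is that of the RefSeq transcript. For HEY2 it follows the window chr6:125749382-125749631, inside the longer GENCODE span given above, and the stretch shown stops short of it. Capitals mark matches, on either strand, to TGGGAA, the core of the RBPJ motif, and to TAAT, the core of homeobox motifs.
HEY2 (chr6:125749382-125749579, plus strand): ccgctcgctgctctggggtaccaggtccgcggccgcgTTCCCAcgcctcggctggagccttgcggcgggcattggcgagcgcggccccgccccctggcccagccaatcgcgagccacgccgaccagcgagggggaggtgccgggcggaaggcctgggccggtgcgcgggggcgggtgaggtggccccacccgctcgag
JAG1 (chr20:10674000-10674249, minus strand): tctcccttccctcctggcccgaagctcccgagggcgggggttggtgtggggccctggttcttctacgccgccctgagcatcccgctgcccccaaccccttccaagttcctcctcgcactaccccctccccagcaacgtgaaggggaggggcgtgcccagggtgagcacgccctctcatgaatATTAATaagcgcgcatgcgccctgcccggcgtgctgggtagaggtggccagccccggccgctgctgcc
DLL4 (chr15:40929090-40929332, plus strand): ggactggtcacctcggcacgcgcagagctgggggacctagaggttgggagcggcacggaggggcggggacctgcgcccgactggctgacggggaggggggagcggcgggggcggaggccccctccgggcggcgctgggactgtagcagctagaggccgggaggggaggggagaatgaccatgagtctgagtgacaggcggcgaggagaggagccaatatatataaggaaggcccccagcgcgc
EFNB2 (chr13:106535663-106535912, minus strand): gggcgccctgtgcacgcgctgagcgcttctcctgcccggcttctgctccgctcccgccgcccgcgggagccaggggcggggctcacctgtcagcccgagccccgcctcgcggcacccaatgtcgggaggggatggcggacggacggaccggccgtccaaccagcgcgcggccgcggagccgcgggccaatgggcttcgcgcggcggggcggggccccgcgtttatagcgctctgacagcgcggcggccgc
RefSeq upstream sequence was found for 8 of the 10 genes, in 11 windows of 250 bases, since GJA5 and CXCR4 have several starts. TGGGAA was found in HEY2, 213 bases before the RefSeq start and as the longer GTGGGAA, and at starts of CXCR4. GTGGGAA itself was found in 2 of the 8 genes, and 5.43% of all 35116 windows hold it on either strand, against 20.8% for TGGGAA. The shorter homeobox core TAAT was found in 4 of the 8 genes (JAG1, NOTCH4, GJA5 and CXCR4), and 47.4% of all windows hold it. In JAG1 it stands on both strands, overlapping, 68 and 66 bases before the start. TAATTG, a longer homeobox motif that contains TAAT, was found in 0 of the 8 and in 6.7% of all windows. The counts are per gene, where a match in any window of the gene suffices, and the percentages are per window. The 2 are thus not in the same unit. These matches describe letters in the windows and not binding.

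The 10 genes covered a wide range of levels. GJA4, which encodes connexin 37, was highest, at 338 to 728 FPKM, and stood 122nd among the 15895 genes tested by its WT mean. GJA5, which encodes connexin 40, ranged from 161 to 425 and was below GJA4 in all 6 libraries. DLL4 (148 to 345) and NOTCH1 (169 to 251) came next and changed places, DLL4 being higher in 3 of 6 libraries. EFNB2 followed at 105 to 223, CXCR4 at 44 to 163 and HEY1 at 46 to 85.6. HEY2 (27.5 to 66) and NOTCH4 (26 to 67.3) also changed places, HEY2 being higher in 3 of 6. JAG1 was lowest of the 10 in every library, at 8.88 to 18.5. FPKM is scaled by transcript length, so these levels can be compared between genes.

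**Figure D1:**
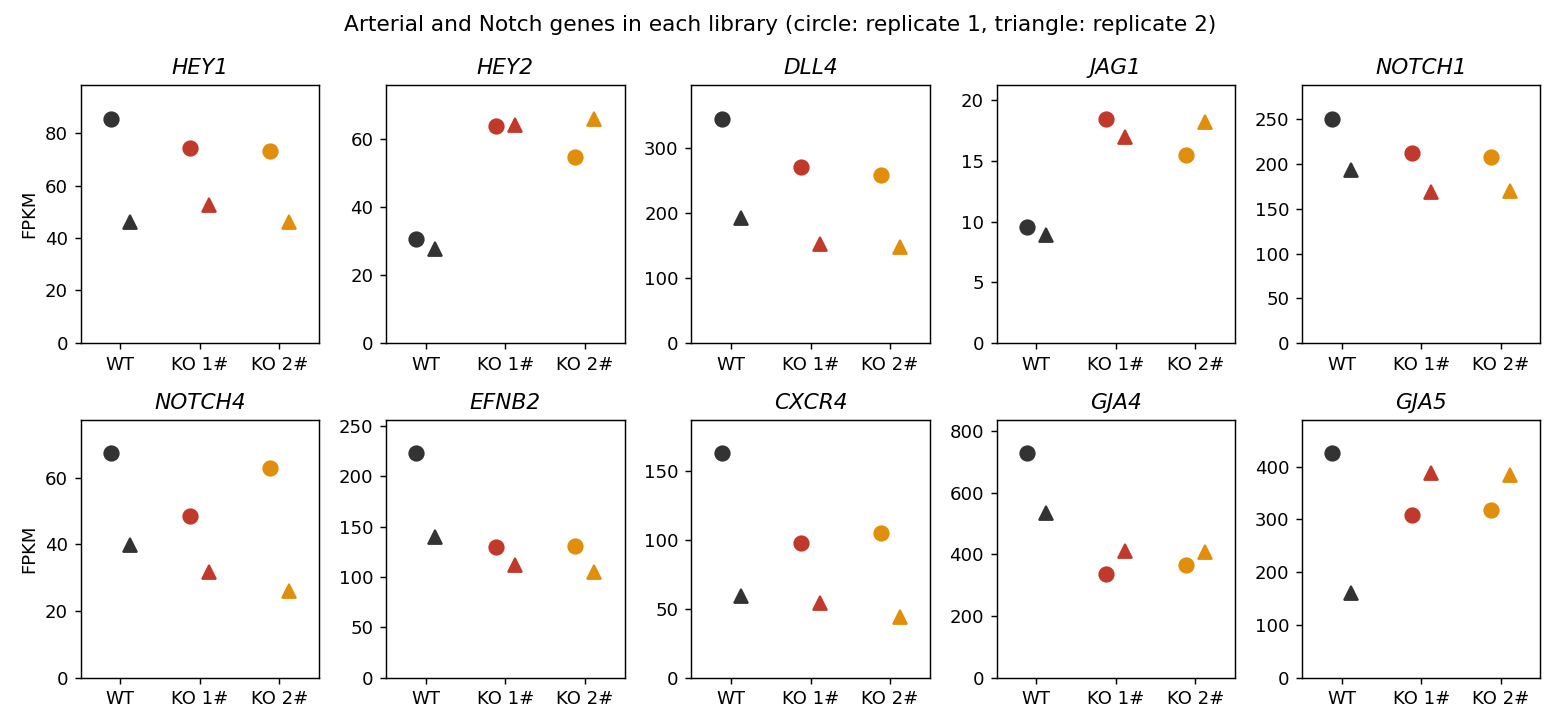
FPKM of the 10 genes in each of the 6 libraries, with 1 panel per gene, a vertical axis that starts at 0, and WT and the knockout clones 1# and 2# along the horizontal axis. HEY2 and JAG1 in MSX2-/- stood above both WT libraries (54.7 to 66 against 27.5 and 30.6 FPKM for HEY2), and EFNB2 and GJA4 stood below both.

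MSX2-/- was compared with WT to ask how the arterial and Notch genes stood in knockout cells. HEY2, a NOTCH-responsive, HES-related repressor that favors arterial fate, was about 2.10-fold higher in MSX2-/- libraries, and JAG1 about 1.79-fold higher. EFNB2, GJA4 and DLL4 were lower by factors of 1.48, 1.64 and 1.29 when replicate numbers were matched. HEY1, NOTCH1, NOTCH4, GJA5 and CXCR4 did not pass the test in either form of it. All fold values are on the log2(FPKM + 1) scale and were tested with limma over the 15895 genes. Because replicates with the same number deviated together, the fit with the replicate number as a block is given beside that without it.

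HEY2 was at 30.6 and 27.5 FPKM in WT replicates 1 and 2, at 63.9 and 64.1 in clone 1# and at 54.7 and 66 in clone 2#. All 4 MSX2-/- libraries stood above both WT libraries. The difference was 1.07 ± 0.12 (SE, n = 4 and 2) in log2(FPKM + 1), with a limma adjusted p of 0.0180, and 0.00312 with the block. With 1 library left out at a time, the call without the block held only without 2# replicate 1 (adjusted p = 0.0412, against up to 0.105), and with the block it held in 6 of 6 fits. With 3 groups and no block its adjusted p was 0.0856.

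JAG1, which encodes a JAGGED ligand of the NOTCH receptors, was at 9.52 and 8.88 FPKM in WT, 18.5 and 17 in 1#, and 15.5 and 18.2 in 2#. Here too the groups did not overlap. The difference was 0.84 ± 0.14 (SE), with a limma adjusted p of 0.0479, and 0.00773 with the block. The call without the block ended under several other settings, with limma adjusted p of 0.0599 without the filter on low values, 0.0521 with libraries rescaled, 0.0583 without the mean-variance trend and 0.158 with 3 groups. It also ended with any 1 library left out (0.0881 to 0.225), and the call with the block ended only without WT replicate 2 (0.0651).

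EFNB2, the ephrin of arterial endothelium, was at 223 and 140 FPKM in WT, 130 and 112 in 1#, and 131 and 105 in 2#. All MSX2-/- libraries stood below both WT libraries, although the lower WT library was close to them. The log2 difference was -0.57 ± 0.20 (SE) with a limma adjusted p of 0.325, and with the block the SE was 0.10 and the adjusted p 0.0209. The block call held without WT replicate 2 or 1# replicate 2 and ended without any of the other 4 libraries, with limma adjusted p up to 0.0786. Against WT replicate 2 alone the log2 difference was -0.37 with the block and -0.23 without it, and against WT replicate 1 alone -0.77 and -0.90. It ended as well without the filter on low values (0.0959).

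GJA4 was at 728 and 535 FPKM in WT, 338 and 412 in 1#, and 366 and 409 in 2#. The groups did not overlap. The log2 difference was -0.71 ± 0.15 (SE), the limma adjusted p 0.0966 without and 0.0323 with the block. The block call held with WT replicate 2 left out and ended with any of the other 5 left out, with limma adjusted p up to 0.0949, and the log2 difference was -0.38 against WT replicate 2 alone and -1.05 against WT replicate 1 alone. The block call ended as well without the filter on low values (adjusted p = 0.143) and with 3 groups (0.0590).

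DLL4, the main DELTA-like ligand of arterial and tip cells, was at 345 and 192 FPKM in WT, 271 and 152 in 1#, and 258 and 148 in 2#. The groups overlapped, but each MSX2-/- library was below the WT library of its own number, by 0.33 to 0.41 in log2. The mean log2 difference was -0.37 ± 0.35 (SE) without the block (limma adjusted p = 0.806) and ± 0.05 with it (adjusted p = 0.0125). The block call ended without WT replicate 1, WT replicate 2 or 2# replicate 2, with adjusted p up to 0.0756.

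NOTCH1, the receptor most tied to arterial fate, was at 251 and 193 FPKM in WT, 213 and 169 in 1#, and 208 and 170 in 2#. The log2 difference was -0.22 ± 0.16 (SE), with a limma adjusted p of 0.714, and 0.0561 with the block. NOTCH4, an endothelial receptor, was at 67.3 and 39.7 in WT, 48.6 and 31.8 in 1#, and 63 and 26 in 2#, and had a limma adjusted p of 0.841 without and 0.153 with the block. Each MSX2-/- library was below WT of its number for both receptors, by a wider range for NOTCH4 (0.09 to 0.59 in log2) than for NOTCH1 (0.18 to 0.27).

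CXCR4, the receptor of the chemokine CXCL12, was at 163 and 59.2 FPKM in WT, 97.7 and 54.5 in 1#, and 105 and 44 in 2#. HEY1, the closest relative of HEY2 here and located at chr8:79764010-79767863, was at 85.6 and 46.1 in WT, 74.3 and 52.5 in 1#, and 73.1 and 46 in 2#. Neither was called, with limma adjusted p of 0.840 and 0.0718 for CXCR4 and 0.978 and 0.730 for HEY1, without and with the block. HEY1 was below WT of the same number in 3 of 4 libraries and CXCR4 in 4 of 4. CXCR4 passed with the block when 1# replicate 2 was left out (adjusted p = 0.0424).

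**Figure D2:**
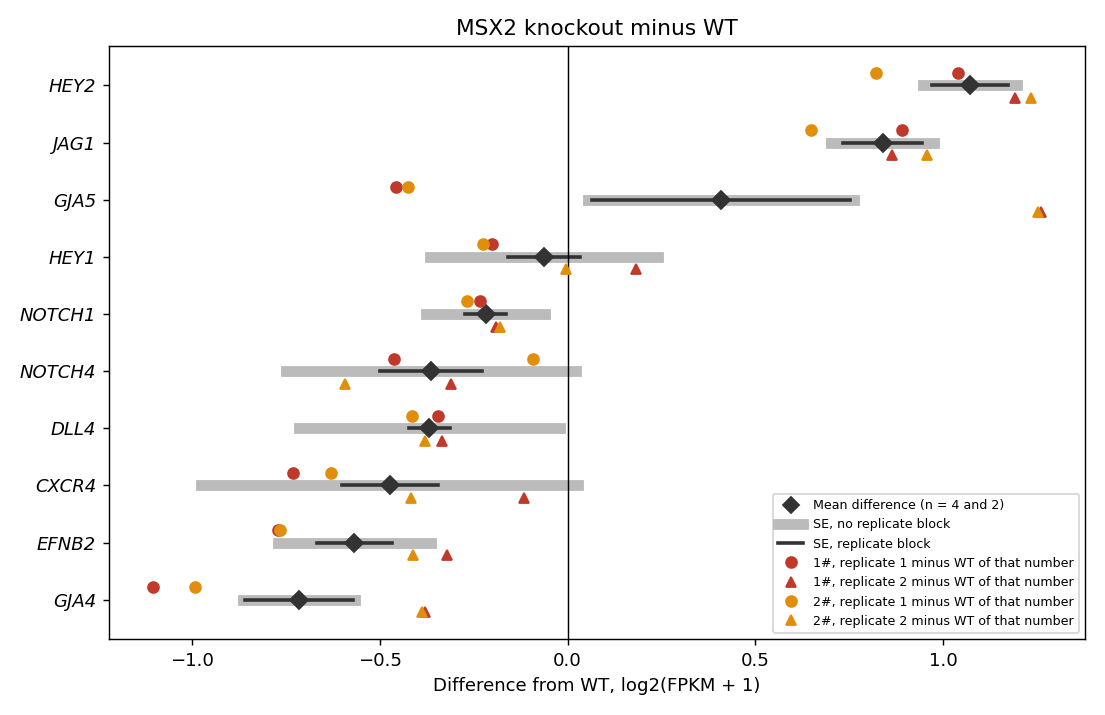
Difference between MSX2-/- and WT in log2(FPKM + 1) on the horizontal axis for each of the 10 genes. Diamonds are the mean difference of 4 libraries from 2, wide grey and narrow dark bars are its SE without and with the replicate block, and circles and triangles are single knockout libraries minus WT replicate 1 or 2. HEY2 and JAG1 lie to the right in all 4 libraries, GJA4, EFNB2, CXCR4, DLL4, NOTCH4 and NOTCH1 to the left in all 4, and GJA5 lies to the left in replicate 1 and to the right in replicate 2.

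Of the 10 genes, 2 were called without the block, both higher, where 1.28% of all genes tested were called, 0.963% higher and 0.321% lower. With the block, 5 were called, 2 higher and 3 lower, where 9.85% of all genes were called, 6.11% higher and 3.74% lower. Leaving out 1 library at a time gave 0 or 1 called member in the unblocked fits and 2 to 5 in the blocked ones. The groups did not overlap for 4 of the 10 (2 above, 2 below) and for 21.3% of all genes tested (12.1% above, 9.19% below). Each MSX2-/- library was below WT of its number for 6 of the 10, as for 21.4% of all genes, and above it for 2 of the 10, as for 23.6%. The median log2 difference of the 10 was -0.29, and that of all genes tested 0.01.

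The clones gave like values for the 10 genes. HEY2 was higher than WT by 1.12 in 1# and 1.03 in 2# on the log2 scale, JAG1 by 0.88 and 0.80, and EFNB2 was at -0.55 and -0.59, GJA4 at -0.74 and -0.69, and DLL4 at -0.34 and -0.40. With each clone tested against WT by limma in a fit of 3 groups, 0 of the 10 genes were called in either clone, with 0.00629% of all genes called in each. At an unadjusted p under 0.05 there were 3 of the 10 in each clone, and 7.37% of all genes in 1# and 7.43% in 2#. With the block, HEY2 and JAG1 were called in both clones, where 3.46% of all genes were called in 1# (2.29% higher, 1.17% lower) and 3.71% in 2# (2.59% higher, 1.13% lower). Their limma adjusted p with the block were 0.0174 and 0.0209 for HEY2 and 0.0383 and 0.0440 for JAG1. Between 2# and 1#, limma called 0 of the 10 and 0 genes in all, with 0 of the 10 and 225 genes at an unadjusted p under 0.05. The largest clone difference among the 10 was -0.11 in log2, in HEY1, with an SE of 0.38.

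Replicate 1 and replicate 2 differed widely for most of these genes. Within WT, 1# and 2#, the levels of HEY1, DLL4, NOTCH1, NOTCH4, EFNB2 and CXCR4 were lower in replicate 2 in each of the 3 pairs, as were those of 33.9% of all genes, while 28.6% were higher in each pair and 0 of the 10 were. By limma with the 3 groups as covariates, 6 of the 10 were lower in replicate 2 and 0 higher, where 27.9% of all genes were called, 15.5% lower and 12.5% higher. CXCR4 differed most, by -1.17 ± 0.13 (SE) in log2, with 97.7 to 163 FPKM in replicate 1 and 44 to 59.2 in replicate 2. The log2 difference was -0.86 for NOTCH4, -0.82 for DLL4, -0.68 for HEY1, -0.40 for EFNB2 and -0.33 for NOTCH1, and the 6 genes had limma adjusted p of 0.00356 to 0.0375. DLL4 had almost the same ratio of replicate 1 to replicate 2 in each pair, 1.79 in WT, 1.78 in 1# and 1.75 in 2#. HEY2 and JAG1 differed by 0.04 and 0.00 in log2 and GJA4 by 0.00, and they were not called. For GJA4 that mean joins opposite directions, -0.44 in WT against 0.28 in 1# and 0.16 in 2#. Set letter, replicate number and anything else that differed between the sets cannot be told apart.

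**Figure D3:**
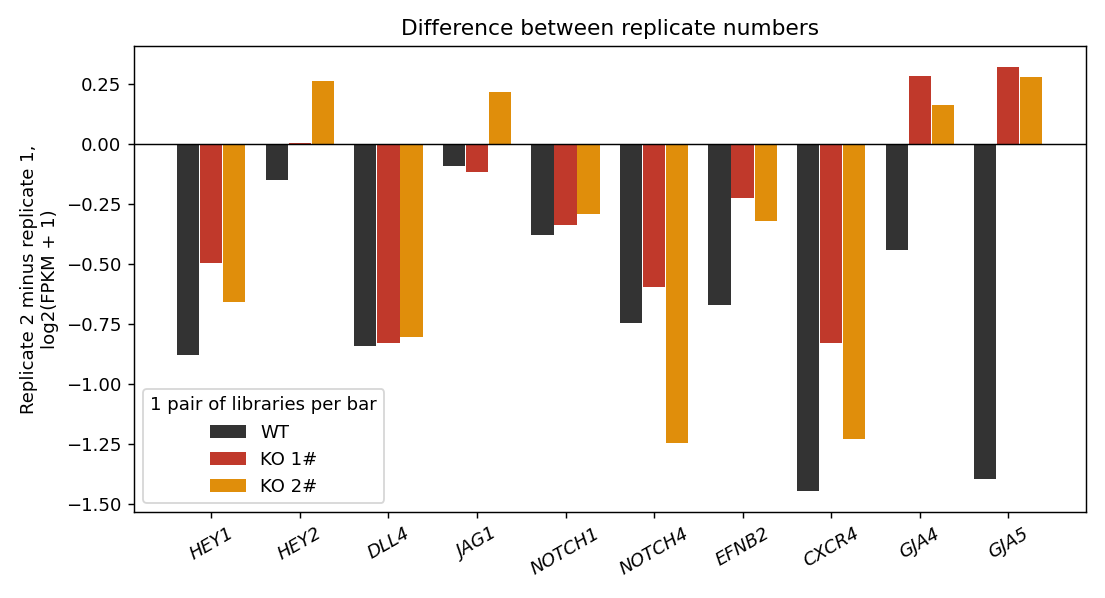
Replicate 2 minus replicate 1 in log2(FPKM + 1) for each of the 10 genes, with 1 bar for each pair of libraries in WT, clone 1# and clone 2#. HEY1, DLL4, NOTCH1, NOTCH4, EFNB2 and CXCR4 lie below 0 in all 3 pairs, and GJA5 lies at -1.39 in WT and at 0.32 and 0.28 in the clones. GJA4 lies at -0.44 in WT and at 0.28 and 0.16 in the clones.

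GJA5 stood apart from the other 9 genes in its difference from WT, which changed direction with the replicate number in both clones. It was at 425 and 161 FPKM in WT replicates 1 and 2, 309 and 387 in 1#, and 317 and 384 in 2#. In replicate 1 both clones were below WT, by 0.46 and 0.42 in log2, and in replicate 2 both were above it, by 1.26 and 1.25. The mean difference of 0.41 ± 0.35 (SE) thus averages opposite directions (limma adjusted p = 0.779, and 0.506 with the block). The difference between replicate numbers in the knockout effect was 1.70 ± 0.09 (SE) in log2, with a limma adjusted p of 0.0617 that misses the threshold. It rests on 1 WT library at each number. With the block, GJA5 was at 1.26 without WT replicate 1 (adjusted p = 0.0117) and at -0.44 without WT replicate 2 (adjusted p = 0.0373). In each of these fits the lone WT library is assumed to vary like the knockout libraries, so the p-values hold no spread between WT libraries. For that test, limma called 0 of the 10 genes and 0.0189% of all genes. At an unadjusted p under 0.05 there were 3 of the 10 (EFNB2, GJA4 and GJA5) and 11.4% of all genes.

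Ratios within a library showed where paired genes parted. These pairs were chosen after the values were seen, and the ratios carry no test. HEY1 over HEY2 was 2.80 and 1.68 in WT and 0.697 to 1.34 in MSX2-/-. GJA4 over GJA5 was 1.71 and 3.33 in WT and 1.06 to 1.16 in MSX2-/-, so that the connexins were near parity in all 4 knockout libraries. JAG2 over JAG1 was 6.36 and 5.70 in WT and 2.33 to 2.99 in MSX2-/-. DLL4 over JAG1 was 36.2 and 21.6 in WT and 8.12 to 16.7 in MSX2-/-. EFNB2 over its receptor EPHB4 did not part the groups, at 1.01 and 0.519 in WT and 0.551 to 0.939 in MSX2-/-. Nor did NOTCH1 over NOTCH4, at 3.73 and 4.86 in WT and 3.3 to 6.55 in MSX2-/-.

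**Figure D4:**
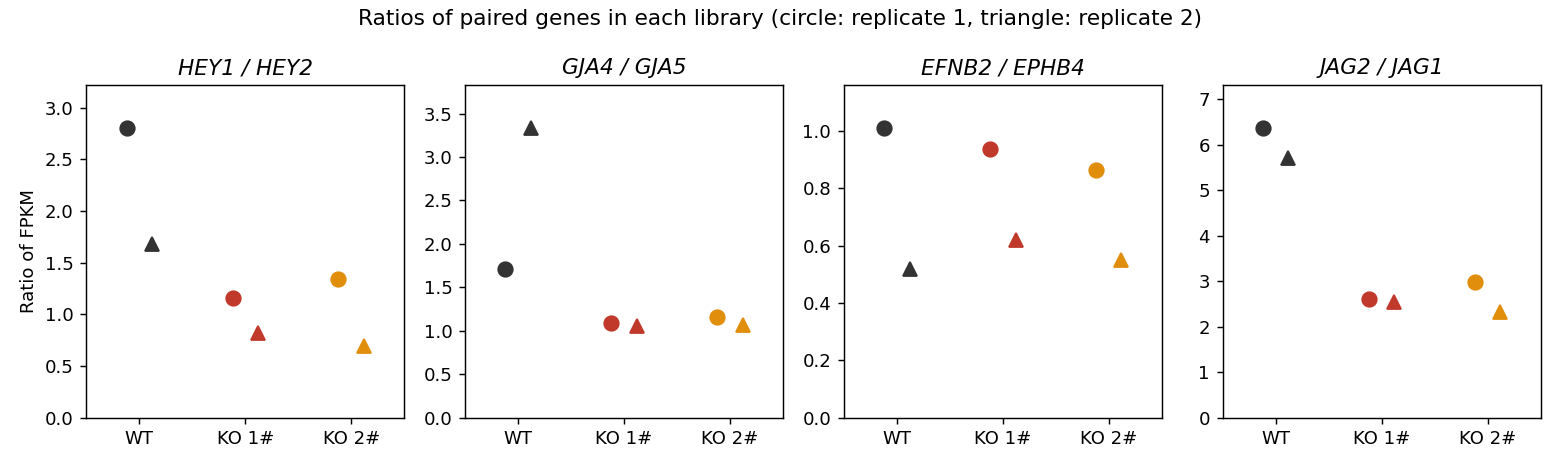
Ratios of FPKM between paired genes in each library, with WT and the knockout clones 1# and 2# along the horizontal axis and each vertical axis starting at 0. The WT ratios of HEY1 to HEY2, GJA4 to GJA5 and JAG2 to JAG1 lie above those of all 4 MSX2-/- libraries, and the EFNB2 to EPHB4 ratios overlap.

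Most of the endothelial markers were lower in MSX2-/- as well, and the part of these markers in the results on the members was not tested. The mean log2(FPKM + 1) of the 12 endothelial markers was 7.51 and 7.66 in WT and 6.85 to 7.19 in MSX2-/-, a difference of -0.56. Of the 12, 3 (CDH5, TIE1 and CLDN5) were called lower without the block and 8 with it, where 0.321% and 3.74% of all genes were. ROBO4 went the other way, at 33.7 and 37.4 FPKM in WT and 39.3 to 50.1 in MSX2-/-, and was not called. PECAM1, EGFL7 and ECSCR overlapped between the groups and were not called in either fit. The median log2 difference of the 12 was -0.55. Set against this mean in the same library, EFNB2 differed between groups by -0.01 and GJA4 by -0.16, and for both the knockout libraries were below WT of their number in 2 of 4. On the same scale HEY2 differed by 1.63, JAG1 by 1.40 and GJA5 by 0.97, each above both WT libraries in 4 of 4. HEY1 differed by 0.50, NOTCH1 by 0.34 and DLL4 by 0.19, each above WT of the same number in 4 of 4, while NOTCH4 (0.20) and CXCR4 (0.09) were above it in 3 of 4. The reference itself differed by -0.56, so a gene with equal levels in both groups also comes out above WT on this scale. Standing above WT here is therefore not a rise in level. The share of all genes above WT on this scale was not computed. These values are a description, with a reference chosen after the data were seen.

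Among the other ligands and receptors of the pathway, 0 of 5 were called by limma without the block and 1 with it. Of all genes tested, 1.28% and 9.85% were called. JAG2, the second JAGGED ligand, was at 60.6 and 50.7 FPKM in WT and 42.3 to 48 in MSX2-/-, a log2 difference of -0.30 ± 0.07 (SE, block) with a limma adjusted p of 0.0469. NOTCH2 was at 3.57 and 2.42 in WT and 3.09 to 5.87 in MSX2-/-, and NOTCH3, known from vascular smooth muscle, was at 65 and 35.2 and at 31.2 to 63.1. DLL1 was low, at 2.76 and 0.692 in WT and 0.308 to 2.28 in MSX2-/-. The levels of NOTCH3 and DLL1, like that of DLL4, were higher in each replicate 1 library than in any replicate 2 library.

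Of 23 genes that process or modulate NOTCH and are reported here, 0 were called without the block and 3 were lower with it, where 3.74% of all genes were lower. The 3 encode subunits of γ-secretase, the protease that frees the intracellular part of NOTCH: PSEN2 (-0.63 in log2), APH1A (-0.29) and APH1B (-0.67), with limma adjusted p of 0.0273 to 0.0423 with the block. The subunit genes NCSTN (-0.16) and PSENEN (-0.06) were not called, with adjusted p of 0.221 and 0.817 with the block. PSEN2 was at 10.7 and 11.6 FPKM in WT and 5.96 to 7.86 in MSX2-/-. RBPJ, the DNA-binding factor of the pathway, was at 18.3 and 23.9 in WT and 15 to 17.7 in MSX2-/-, with a limma adjusted p of 0.525 without and 0.187 with the block.

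Of 7 other target genes of NOTCH, 5 were tested, and HES2 and HES5 were too low. NRARP, a feedback inhibitor of the pathway, was lower with the block only, at 145 and 83.1 FPKM in WT and 63.4 to 106 in MSX2-/- (-0.46 ± 0.07 in log2, limma adjusted p = 0.0170). HES1, at 18.8 and 52.8 in WT and 19.6 to 54 in MSX2-/-, had a log2 difference of 0.04 between genotypes. It was higher in replicate 2 than in replicate 1 by 1.28 ± 0.09 (SE) in log2 (limma adjusted p = 0.00356), the direction opposite to that of DLL4 and HEY1. HES4 (-1.33) and NRARP (-0.70) were lower in replicate 2 (limma adjusted p of 0.00414 and 0.00564). Thus 1 of the 5 targets was higher there and 2 were lower, where 12.5% of all genes were higher and 15.5% lower. HEYL, the remaining HEY gene, was low, at 0.665 and 0.637 FPKM in WT and 0.781 to 1.18 in MSX2-/-. Its groups did not overlap, and its log2 difference of 0.29 was not called (limma adjusted p = 0.622, and 0.284 with the block).

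Of the 7 partners of the members that were tested, 2 were lower with the block, where 3.74% of all genes were lower. EPHB4, the venous receptor of EFNB2, was at 222 and 269 FPKM in WT and 139 to 190 in MSX2-/- (-0.57 in log2, limma adjusted p = 0.207, and 0.00542 with the block). ACKR3, the scavenging receptor for CXCL12, was at 31.4 and 4.17 in WT and 1.23 to 14.5 in MSX2-/-, and its adjusted p with the block was 0.04998, just under the threshold. CXCL12 itself was under the filter, at 0.127 to 0.787 FPKM.

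Of 14 other arterial genes tested, 1 was lower without the block, and 1 was lower and 2 higher with it. Of all genes tested, 0.321% were lower without the block, and 3.74% were lower and 6.11% higher with it. GLUL, which encodes glutamine synthetase, was at 436 and 416 FPKM in WT and 260 to 277 in MSX2-/- (-0.65 ± 0.08 in log2, limma adjusted p = 0.0211). HECW2, a ubiquitin ligase gene, was at 3.88 and 12.1 in WT and 19.9 to 35.1 in MSX2-/-, and EPAS1, a hypoxia factor of endothelium, was at 47.8 and 56.3 and at 63.2 to 90.8, both called with the block (limma adjusted p of 0.00270 and 0.0102). NRP1, a VEGF co-receptor of arteries, was at 214 and 162 in WT and 136 to 152 in MSX2-/- (adjusted p = 0.340, and 0.0617 with the block). The median log2 difference of the 14 was 0.15.

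Venous genes were set beside these because NR2F2 represses Notch signaling in veins. Of 6, 2 were lower without the block and 3 with it, with EPHB4 counted in this list as well. Of all genes tested, 0.321% and 3.74% were lower. NR2F2 was at 26.4 and 25.5 FPKM in WT and 1.06 to 5.78 in MSX2-/-, a log2 difference of -3.00 ± 0.46 (SE, limma adjusted p = 0.0404). APLNR, the apelin receptor, was at 329 and 391 in WT and 77.1 to 93.8 in MSX2-/-, a log2 difference of -2.06 ± 0.13 (limma adjusted p = 0.00535).

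**Figure D5:**
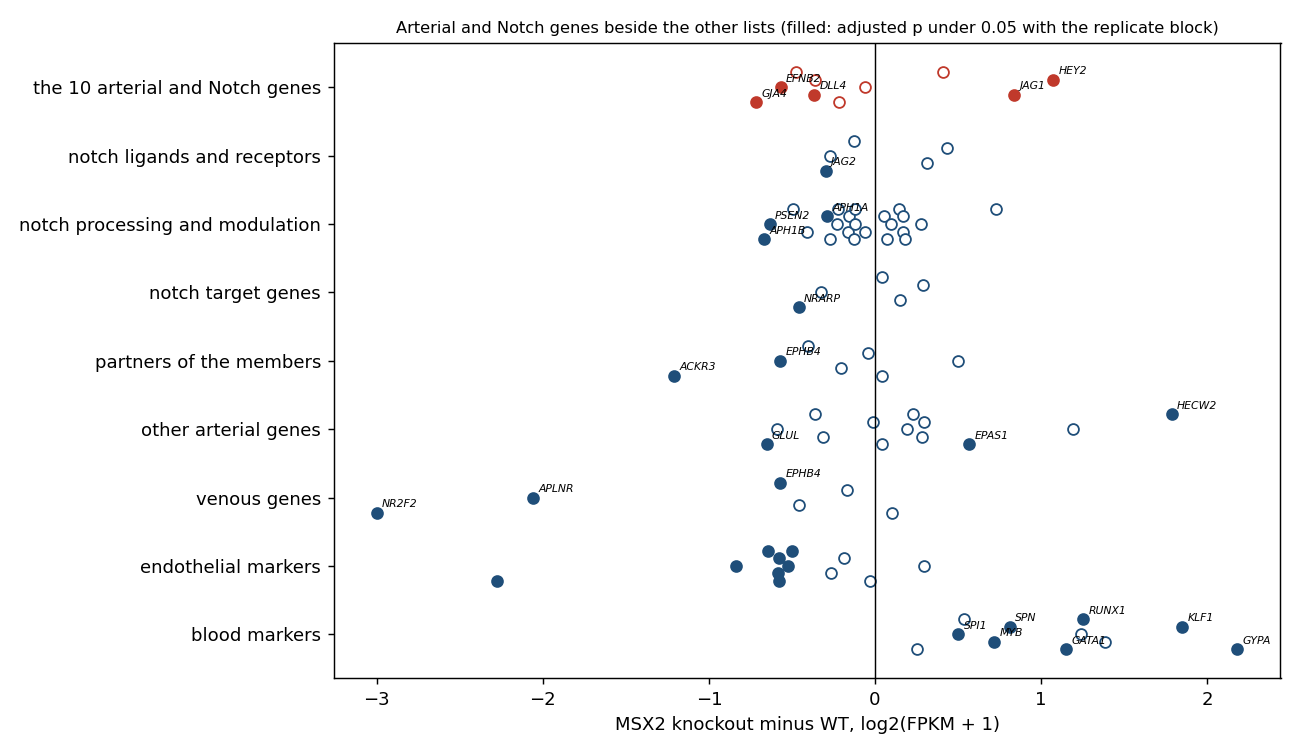
MSX2-/- minus WT in log2(FPKM + 1) on the horizontal axis for each tested gene of the 10 and each one reported here of 8 other lists, filled where the limma adjusted p with the replicate block was under 0.05, with vertical scatter within a list only for legibility. NR2F2 lies farthest to the left at -3.00, and HEY2 (1.07) and JAG1 (0.84) are the filled points to the right among the 10.

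Over the 6 libraries, HEY2 and JAG1 had nearly the same profile (Pearson r = 0.996), and DLL4 correlated with NOTCH1 at 0.985 and with CXCR4 at 0.980. Of 113 listed genes outside the 10, TEK, an endothelial receptor, was most like GJA4 (r = 0.996). DLL1 was most like DLL4 (0.978), NRARP most like NOTCH1 (0.987), ACKR3 most like NOTCH4 (0.978) and TMEM100 most like CXCR4 (0.993). MAML3 was most like EFNB2 (0.988) and DTX3 most like HEY1 (0.980). No gene was close to GJA5, for which the highest value was 0.676, with SNW1. These correlations are descriptions over 6 libraries that share genotype and replicate number.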

How the data were processed

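RNA-seq was performed on 6 libraries at day 8. The authors deposited FPKM values, 1 column per library, with replicates not pooled. The design text names TopHat and Cufflinks, and BWA with ANOVA, and the submitters' processing notes list BWA, Bowtie, RSEM and hg19. Which of them made the table is not given in the sources used here, nor are the annotation, filters, use of strand or number of reads, so no counting interval is given. FPKM summed to 555286 to 617120 per library, with 13366 to 14222 genes at 1 FPKM or more, and depth estimated from low values varied by at most 1.18-fold. The labels' growth protocol speaks of HAND1 overexpression, which the sources used here do not otherwise mention for these cells. The labels number the clones differently from the table, whose names 1# and 2# are used.

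Differences were tested with limma 3.58.1 in R 4.3.3 on log2(FPKM + 1) (moderated by empirical Bayes, trend on) for the 15895 genes whose mean reached 0.5 FPKM, and p-values received Benjamini-Hochberg adjustment over all of them, with a threshold of 0.05. Fold changes understate those of low genes. Replicate 2 minus replicate 1 correlated across genes between WT and 1# (0.508), WT and 2# (0.540) and 1# and 2# (0.637), so the shared numbers pair the libraries, and a fit with the number as a block is given where it changes a call. The fits were also run on simulated data, whose settings and outcome are not reported here. Members and lists were chosen with earlier results of these data known. Named besides the 10 were listed genes called in either fit, 12 others named in the rule, MSX2, and the listed gene most correlated with each member. GJA1 and SEMA3G are named only as examples of a pattern seen in GJA5. Endothelial, blood, mesenchymal, pluripotency, hepatic and neural markers were taken as lists, with single markers named where they shape a sum or part from their list. Promoter windows are from RefSeq. Some listed genes, and the results that need them, are not reported here.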

Additional observations from a re-analysis of the deposited data

Results flagged for a closer look

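GJA5 was the only member for which every MSX2-/- library of replicate 1 lay on one side of WT and every one of replicate 2 on the other. The difference between replicate numbers in the knockout effect was 1.70 in log2(FPKM + 1), with a limma adjusted p of 0.0617. Without WT replicate 1 the block fit gave GJA5 a difference of 1.26 in log2 (adjusted p = 0.0117), and without WT replicate 2 it gave -0.44 (adjusted p = 0.0373), in both cases with the lone WT library assumed to vary like the knockout libraries. The direction for GJA5 changed with the WT library left out.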

How the results depend on the processing

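Of the 204 genes called for MSX2-/- minus WT and the 2 members among them, the replicate block gave 1566 and 5, the fit without the filter on low values 125 and 1, 3 groups 6 and 0, and the block without the filter 507 genes. Rescaled libraries and the fit without the mean-variance trend each left 1 member, HEY2. Chosen after the data were seen, the block gave 1619 genes and 6 members with rescaled libraries, 1703 genes with a pseudocount of 0.1, and 1003 genes and 4 members with 3 groups. Each clone against WT went from 1 gene to 550 in 1# and 590 in 2# with the block, and from 0 members to 2 in each. The count for the difference between replicate numbers in the knockout effect went from 3 to 0 with a pseudocount of 0.1. Leaving out 1 library at a time (a lone WT library being assumed to vary like the others) gave 11 to 899 genes and 0 to 5 members over the fits without and with the block, the block fits giving 665 to 899 genes and 2 to 5 members. HEY2 passed in 6 of 6 such block fits and JAG1 in 5 of 6 (adjusted p = 0.0651 without WT replicate 2). DLL4 passed in 3 of 6, EFNB2 in 2 and GJA4 in 1. Over the leave-one-out fits with and without the block together, HEY1 ranged from -0.50 to 0.38 in log2, DLL4 from -0.79 to 0.052, NOTCH4 from -0.74 to 0.0095, CXCR4 from -1.19 to 0.25 and GJA5 from -0.44 to 1.26, each turning direction, DLL4, NOTCH4 and CXCR4 only without WT replicate 1 and without the block. EFNB2, GJA4, NOTCH1, HEY2 and JAG1 kept their direction under all settings run. With 3 groups, limma adjusted p was 0.0856 for HEY2 and 0.158 for JAG1, and NOTCH1 passed with block and rescaling (0.0445). The cause of these changes was not tested, apart from the fewer libraries left. Each member has 1 row, so summing rows gives the same values. The 2 WT libraries limit every comparison, and reads per library are unknown.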
